A study of Mus musculus with 19 samples.

Results

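The genes that carry glucose into C2C12 cells and break it down to pyruvate and lactate were followed through thapsigargin exposure and recovery. The set holds 34 genes, of 55401 gene identifiers in the files. They were taken by pathway role: glucose transporters, the enzymes of glycolysis with their isozymes, lactate dehydrogenase, pyruvate dehydrogenase kinases, the PFKFB enzymes, monocarboxylate transporters, Tigar and Bpgm. The rule itself uses no expression value, but the genes, the lists and the isozyme pairs below were chosen with earlier results of these data known. All 34 were among the 18039 genes that passed the filter on low counts.

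C2C12 is an established line of mouse myoblasts, the precursors of skeletal muscle fibres. Bulk RNA sequencing covered 19 libraries in 7 groups. The vehicle DMSO and 100 nM thapsigargin were given for 2 h (n = 3 each), 6 h (n = 3 each) or 12 h (n = 2 each), and a recovery group (n = 3) had 6 h of the drug followed by 48 h without it. Thapsigargin blocks SERCA, the pump that loads calcium into the endoplasmic reticulum, and the series asks about ATF4 and CEBPG in the integrated stress response. No label gives a genetic change, and all groups are the same line. No vehicle group matches the total time of recovery, so the effect of recovery cannot be told apart from that of later time. Nothing in the labels states that replicates came from separate cultures. The p-values therefore measure the spread between these libraries, which may be technical.

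Glycolysis splits glucose into pyruvate and yields ATP and NADH in the cytosol. Several steps are served by isozymes from different genes: hexokinase traps glucose in the cell, phosphofructokinase commits it to the pathway, and enolase, aldolase and phosphoglycerate mutase each have a form that is typical of muscle. Lactate dehydrogenase restores NAD+ by turning pyruvate to lactate, which leaves through monocarboxylate transporters, while pyruvate dehydrogenase kinases hold pyruvate back from the mitochondria.

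Gene reads numbered 17.31 to 40.96 M (mega) per library. In 4 libraries the composition stood apart from the rest of their group. Mitochondrially encoded genes took 15.8% of gene reads in DMSO replicate 3 at 2 h and 14.9% in recovery replicate 1, against 1.41 to 3.07% elsewhere. The log2 level of long transcripts relative to short ones was -1.06 in DMSO replicate 3 and -0.06 in thapsigargin replicate 1 at 6 h. In the other DMSO libraries at 6 h it was -0.65 and -0.45, and in the other thapsigargin libraries -0.95 and -0.78. At 2 h and 12 h it was positive in every library (0.33 to 0.90), and in recovery it was -1.23, -0.07 and -0.61. Counts of calls are given with and without these 4 libraries. A gene is named as called where edgeR's test on all 19 libraries passed, unless another tool or set of libraries is named. The 6 myoblast markers were detected in every group, with summed levels of 1966 to 18127 CPM. Markers of macrophages (Adgre1 at 0 in all groups), endothelium and adipocytes stayed at or below 11.2 CPM in sum, and 4 epithelial markers reached 13.3 to 24.3 CPM in thapsigargin at 6 h with Epcam at 0. Their part in the results was not tested.

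The 34 genes took 0.788 to 2.26% of gene reads in DMSO libraries. At 6 h they took 2.16, 2.01 and 2.26% in DMSO and 1.18, 1.61 and 1.5% in thapsigargin. At 12 h the shares were 1.36 and 1.35% against 1.09 and 1.18%. At 2 h they were 1.35, 1.34 and 0.788% against 1.04, 1.05 and 1.09%. The groups did not overlap at 6 h or 12 h, while at 2 h DMSO replicate 3 lay below all 3 drug libraries. Recovery libraries held 1.93, 1.86 and 2.20%. In bulk RNA, fewer cells with a transcript and less of it per cell cannot be told apart.

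Levels are CPM, read counts relative to the total of each library, on library sizes scaled by the trimmed mean of M values (TMM). Levels of different genes are compared per kilobase of exon, with all annotated exons of a gene merged. Merged exons can be longer than any 1 transcript, so ranks and shares between genes depend on this length. Averaged over the DMSO libraries, Gapdh, which oxidises glyceraldehyde phosphate, stood highest at 812 CPM per kb. Pkm, the last ATP-yielding enzyme, followed at 536, and then the muscle enolase Eno3 at 514. Ldha (431), the aldolase Aldoa (430), the ubiquitous enolase Eno1 (410), the phosphoglycerate kinase Pgk1 (386) and the isomerase Tpi1 (364) lay close together. The libraries' ranges of these 8 genes overlapped. The rank of Eno3 above Eno1 rests on merged exons of 1.74 kb and 5.38 kb. In counts not divided by length Eno1 was higher, with mean log2 Eno3/Eno1 ratios of -1.61, -1.18 and -1.63 in DMSO at 2, 6 and 12 h. Pgam1 reached 142 CPM per kb and the glucose phosphate isomerase Gpi1 98.6. The first steps and the regulators lay lower, from 64.0 CPM per kb for the transporter Slc2a1 to 0.85 for Pfkfb2 and 0.55 for the brain-type aldolase Aldoc. The insulin-responsive transporter Slc2a4 and the neuronal-type transporter Slc2a3 were nearly silent, at 0.080 and 0.039 CPM per kb. Counts of Gapdh, Aldoa, Tpi1, Pgk1, Pgam1, Eno1 and Ldha may include reads of near-identical processed pseudogenes, and gene counts do not separate the M1 and M2 forms of Pkm.

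Across 17 pairs of isozymes, 9 ratios differed between thapsigargin and DMSO over the 3 exposure times. A ratio within a library does not depend on how libraries are scaled, but is not free of length or GC bias between them. Each was tested by an exact permutation of the labels within each time, two-sided, with 2400 arrangements and 0.000833 as the smallest p they can give. All 9 also had p-values below 0.05 after adjustment over the 17 ratios, and all 9 kept this side of the raw threshold when any 1 library was left out. The balance of isozymes differed at the hexokinase, phosphofructokinase, aldolase, mutase, enolase, PFKFB and lactate export steps. For the transporters Slc2a3 and Slc2a4 against Slc2a1, Ldhb against Ldha, Pfkl against Pfkm, Pdk2, Pdk3 and Pdk4 against Pdk1, and Pfkfb2 against Pfkfb3, the test did not pass.

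**Figure D1:**
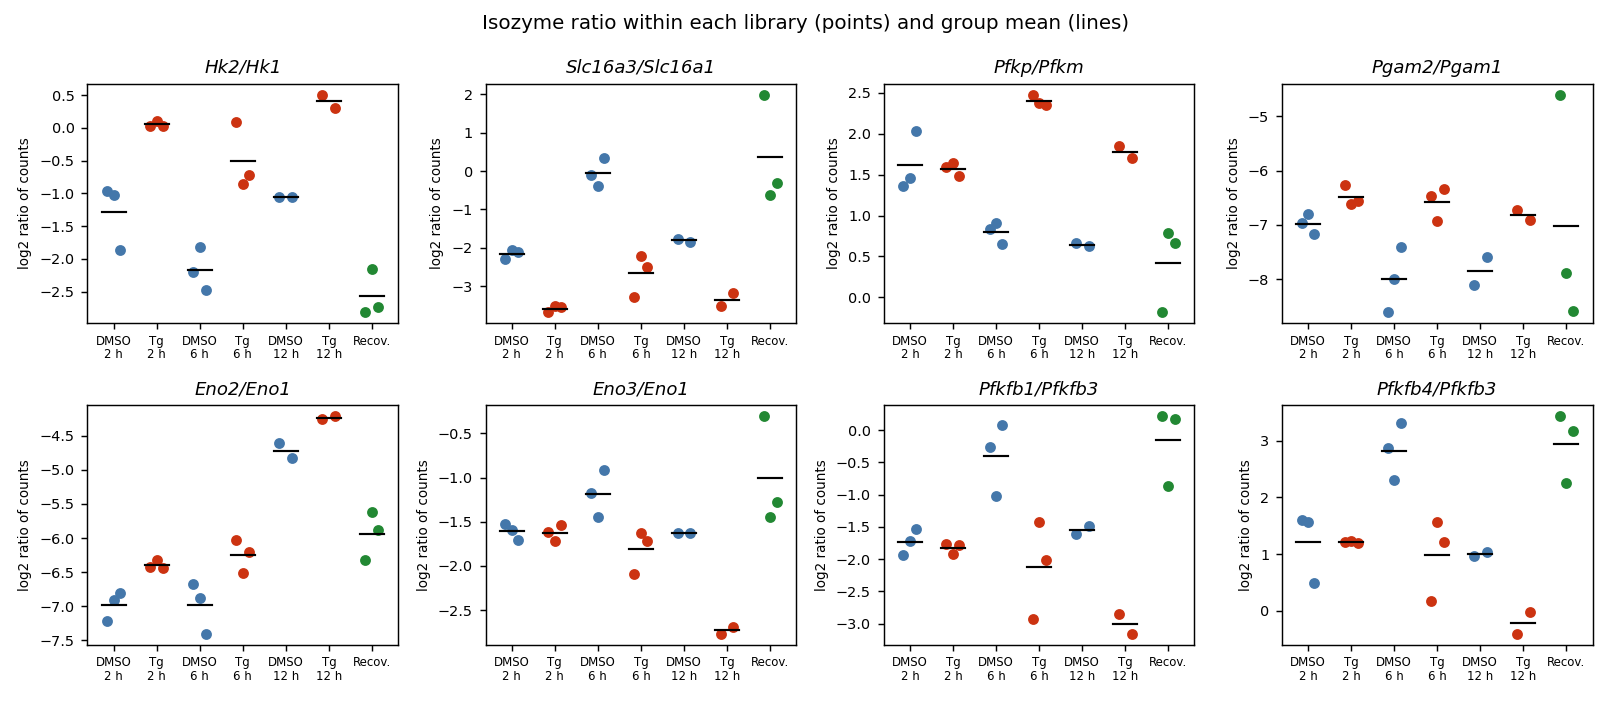
Log2 ratio of counts of 2 isozymes within each library (vertical axis) for the 7 groups (horizontal axis; blue DMSO, red thapsigargin, green recovery; lines are group means). The Hk2/Hk1 ratio is higher and the Slc16a3/Slc16a1 ratio lower in every thapsigargin library than in any DMSO library of the same time.

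The balance of the hexokinases moved from Hk1 towards Hk2 at every time. Hk1 (ENSMUSG00000037012, chr10:62268855-62379908 in GRCm38), the housekeeping form that binds mitochondria, fell, and Hk2 (chr6:82725025-82774454), the inducible form of muscle and growing cells, was higher in every drug library. Per kilobase, Hk2 made up 37.3% ± 7.87 (SD, n = 3) of hexokinase message in DMSO and 59.7% ± 0.686 (n = 3) in thapsigargin at 2 h. It made up 24.3% ± 4.22 and 50.2% ± 8.74 at 6 h (n = 3 each) and 40.8% ± 0.0813 and 65.4% ± 2.34 at 12 h (n = 2 each). The log2 Hk2/Hk1 ratio was higher under thapsigargin by 1.33, 1.67 and 1.46 at 2, 6 and 12 h, a mean of 1.49 or 2.80-fold (exact permutation p = 0.000833, 0.00354 adjusted over the 17 ratios). Merged exons spanned 8.53 kb for Hk1 and 5.97 kb for Hk2. Per kilobase, Hk2 was the larger form in every drug library at 2 h and 12 h. At 6 h this held in replicate 1 alone (60.2%, against 44.0 and 46.5% in the others). Without division by length, the log2 Hk2/Hk1 ratio was 0.02 to 0.10 in thapsigargin at 2 h and 0.30 to 0.51 at 12 h. Which form is larger therefore depends on the lengths taken. In recovery Hk2 made up 19.6% ± 4.02 (n = 3).

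Hk1 stood at 384, 387 and 408 CPM in DMSO and 308, 303 and 309 CPM in thapsigargin at 2 h. At 6 h it was 388, 339 and 363 CPM against 177, 210 and 208 CPM. At 12 h it was 268 and 269 CPM against 142 and 156 CPM. Every drug library lay below every vehicle library of its time. By edgeR the log2 difference was -0.36 ± 0.14 (SE) at 2 h (adjusted p = 0.19), where DESeq2 called Hk1 lower (-0.35, adjusted p = 0.016). At the later times edgeR gave -0.87 ± 0.14 at 6 h (adjusted p = 3.6e-04) and -0.85 ± 0.17 at 12 h (adjusted p = 0.0035). The call at 12 h ended without thapsigargin replicate 1 (adjusted p = 0.069), and with total-count scaling (adjusted p = 0.11).

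Hk2 stood at 198, 190 and 112 CPM in DMSO and 315, 325 and 314 CPM in thapsigargin at 2 h. At 6 h it was 84.3, 95.9 and 65.1 CPM against 188, 116 and 126 CPM. At 12 h it was 129 and 130 CPM against 202 and 192 CPM. The drug libraries lay above the vehicle libraries at all 3 times, and Hk2 was the only 1 of the 34 genes for which they did. The log2 difference by edgeR was 0.93 ± 0.25 at 2 h (adjusted p = 0.046), 0.81 ± 0.25 at 6 h (adjusted p = 0.030) and 0.61 ± 0.31 at 12 h (adjusted p = 0.24). The call at 2 h ended when any 1 of the 6 libraries was left out (adjusted p 0.057 to 0.14). The call at 6 h ended without DMSO replicate 1 or 3 or thapsigargin replicate 1 (adjusted p 0.075 to 0.15). Without the 4 libraries that stand apart, Hk2 was called higher at all 3 times.

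The transcript balance of the 2 monocarboxylate transporters moved the same way at every exposure time. Slc16a3 (chr11:120948480-120960868) encodes MCT4, the exporter typical of glycolytic fibres and tumours, and Slc16a1 (chr3:104638668-104658462) encodes MCT1, which carries lactate in both directions. The log2 Slc16a3/Slc16a1 ratio was lower under thapsigargin by a mean of 1.87 on the log2 scale, which is 3.65-fold (-1.43, -2.62 and -1.54 at 2, 6 and 12 h). The exact permutation p was 0.000833 (0.00354 adjusted over the 17 ratios). Per kilobase, Slc16a3 went from 44.7% ± 6.19 of the pair in DMSO at 6 h (n = 3) to 11.9% ± 3.69 in thapsigargin (n = 3).

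Slc16a3 stood at 47.5, 55.3 and 22.2 CPM in DMSO and 16.5, 18.6 and 17.1 CPM in thapsigargin at 2 h. At 6 h it was 140, 129 and 145 CPM against 34.2, 46.5 and 42.6 CPM. At 12 h it was 51.7 and 48.2 CPM against 31.8 and 36.3 CPM. Every drug library lay below every vehicle library of its time. By edgeR it fell by 1.26 ± 0.29 on the log2 scale at 2 h (adjusted p = 0.020) and by 1.75 ± 0.29 at 6 h (adjusted p = 4.8e-04). At 12 h the difference of -0.55 ± 0.35 did not pass (adjusted p = 0.39). The call at 2 h was kept without DMSO replicate 3 and ended without any other 1 of the 6 libraries (adjusted p 0.065 to 0.10).

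Slc16a1 stood at 232, 230 and 96.2 CPM in DMSO and 211, 214 and 201 CPM in thapsigargin at 2 h, where the groups overlapped. At 6 h it was 149, 169 and 115 CPM against 333, 218 and 242 CPM, and at 12 h 177 and 173 CPM against 367 and 329 CPM. At both later times all drug libraries were above the vehicle. The log2 differences of 0.17 ± 0.36, 0.87 ± 0.37 and 0.99 ± 0.45 did not pass edgeR's test (adjusted p = 0.90, 0.11 and 0.18). DESeq2 called Slc16a1 higher at 6 h (0.91, adjusted p = 0.041) but not at 2 h or 12 h. Without the 4 libraries that stand apart Slc16a1 was called higher at 6 h and 12 h.

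The promoters of Hk2, Slc16a3 and Slc16a1 are shown as those of the hexokinase that was higher in every drug library and of both genes of the lactate export ratio. Each runs from 250 bases before to 50 after a start site in RefSeq (GRCm38.p6), 5′ to 3′ on the gene's strand. Capitals mark ACGTG, the core of the hypoxia response element, on either strand, and CACGTG, the E-box, which holds ACGTG on both strands.
Hk2 promoter, chr6:82774405-82774704, minus strand: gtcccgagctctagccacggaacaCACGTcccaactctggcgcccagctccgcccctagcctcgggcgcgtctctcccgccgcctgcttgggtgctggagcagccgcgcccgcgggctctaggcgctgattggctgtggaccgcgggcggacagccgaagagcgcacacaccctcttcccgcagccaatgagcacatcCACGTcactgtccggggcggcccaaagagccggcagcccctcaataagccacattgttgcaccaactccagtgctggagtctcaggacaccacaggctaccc
Slc16a3 promoter, chr11:120948817-120949116, plus strand: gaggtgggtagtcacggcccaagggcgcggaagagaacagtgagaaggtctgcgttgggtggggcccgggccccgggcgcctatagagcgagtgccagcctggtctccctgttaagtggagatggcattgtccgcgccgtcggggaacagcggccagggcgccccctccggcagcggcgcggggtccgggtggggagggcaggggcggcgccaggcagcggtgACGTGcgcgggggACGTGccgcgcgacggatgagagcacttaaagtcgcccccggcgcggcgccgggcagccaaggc
Slc16a1 promoter, chr3:104638414-104638713, plus strand: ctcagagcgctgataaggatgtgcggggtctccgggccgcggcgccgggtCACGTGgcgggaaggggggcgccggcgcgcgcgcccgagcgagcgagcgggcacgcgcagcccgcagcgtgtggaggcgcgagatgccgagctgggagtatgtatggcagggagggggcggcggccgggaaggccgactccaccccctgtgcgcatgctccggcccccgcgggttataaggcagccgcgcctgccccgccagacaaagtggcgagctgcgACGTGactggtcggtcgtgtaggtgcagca

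Promoters in the RefSeq table matched 32 of the 34 genes (51 promoters). Slc2a3 and Slc2a4 had none there. ACGTG stood in 21 of the 51 promoters, of 17 genes, against 19.7% of all 32544 promoters of that length. The E-box CACGTG stood in 6, those of Ldha, Pdk2, Pfkfb2, Pfkfb3, Pfkm and Slc16a1, against 7.17% of all. The cAMP response element TGACGTCA stood in 1 (Ldha), against 1.8%. The ATF4-CEBP composite letters TGATGNAA, with N any base, were in 0 of these windows against 3.91% of all. The ER stress element (2 short boxes at a fixed spacing) was in 0 against 0.12%. Both strands were searched.

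**Figure D2:**
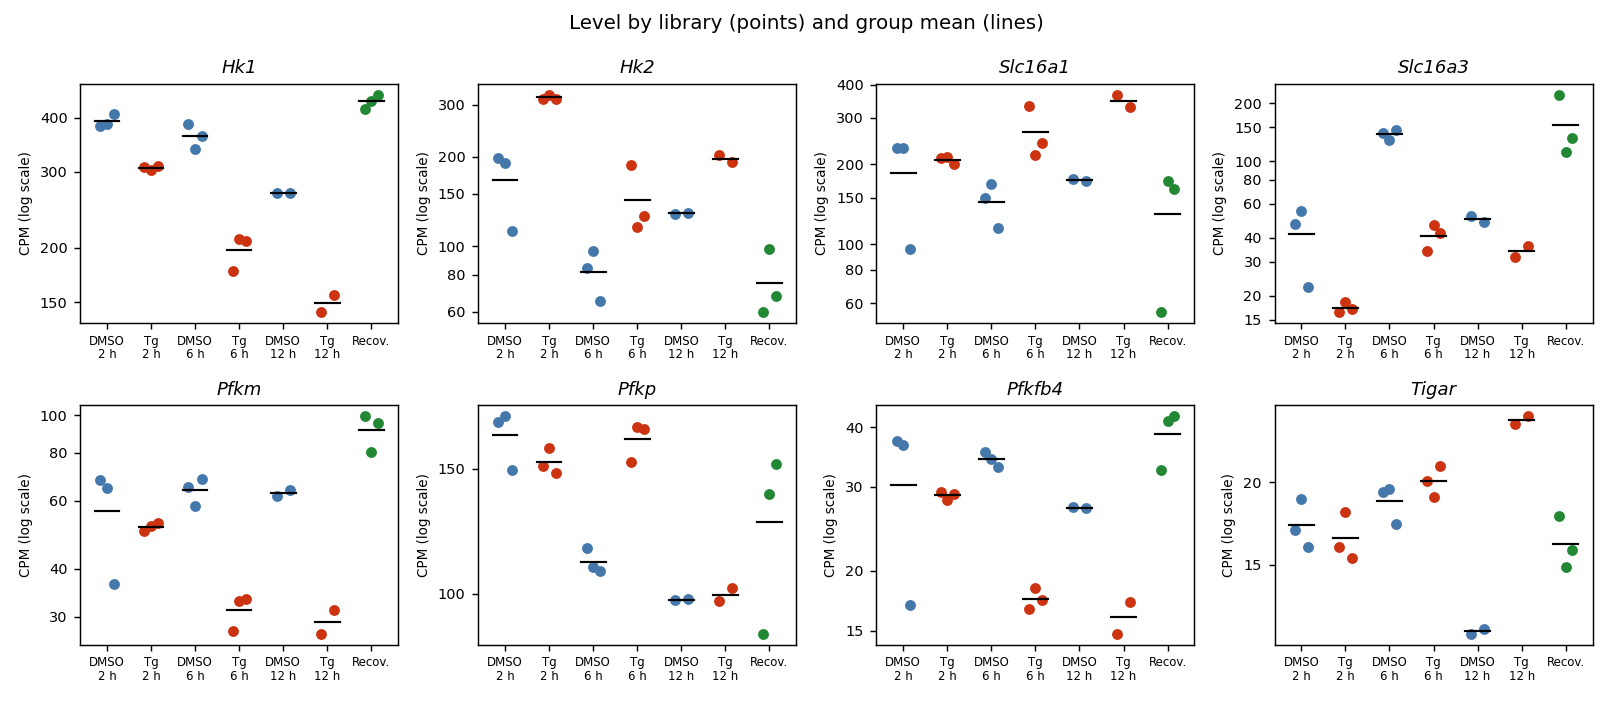
Level of 8 genes in CPM (vertical axis, log scale) in each library of the 7 groups (blue DMSO, red thapsigargin, green recovery; lines are group means). Hk1 and Slc16a3 lie lower and Hk2 higher in every thapsigargin library than in the DMSO libraries of the same time, and Tigar separates at 12 h.

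At phosphofructokinase, the muscle form Pfkm (chr15:98092589-98132451) fell while the platelet form Pfkp (chr13:6579768-6648777) did not. Pfkm stood at 65.1, 58.2 and 68.6 CPM in DMSO and 27.5, 32.9 and 33.4 CPM in thapsigargin at 6 h. At 12 h it was 61.9 and 63.8 CPM against 27.1 and 31.2 CPM, while at 2 h the groups overlapped (36.4 to 67.9 CPM against 50.02 to 52.7 CPM). By edgeR it fell by 1.03 ± 0.20 on the log2 scale at 6 h (adjusted p = 0.0017) and by 1.11 ± 0.25 at 12 h (adjusted p = 0.0068), against -0.13 ± 0.20 at 2 h (adjusted p = 0.84). The call at 12 h ended without DMSO replicate 2 (adjusted p = 0.052) or thapsigargin replicate 1 (adjusted p = 0.096). Of the exon bases of Pfkm, 10.2% are shared with another gene on the same strand. The summed level of 14 markers of differentiated muscle was 169 to 207 CPM in DMSO and 102 to 119 CPM in thapsigargin at 2 h, with no overlap. It was 81.3 to 178 CPM against 45.0 to 125 CPM at 6 h, and 21.8 to 22.6 CPM against 11.9 to 12.9 CPM at 12 h. Tnnc2 was at 0 in DMSO at 2 h and 12 h and in thapsigargin at 6 h and 12 h. Myh8 was at 0 in DMSO at 6 h and 12 h. Summed myoblast markers overlapped at 2 h, at 6561 to 8669 CPM in DMSO and 6676 to 6895 CPM in thapsigargin. They were 12611 to 18127 CPM against 5937 to 10406 CPM at 6 h, and 4949 to 5005 CPM against 1966 to 2153 CPM at 12 h, with no overlap at 6 h or 12 h. Their part in the levels of Pfkm and Eno3 was not tested.

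Pfkp stood at 116, 109 and 108 CPM in DMSO and 153, 171 and 170 CPM in thapsigargin at 6 h, a rise of 0.57 ± 0.18 on the log2 scale (edgeR adjusted p = 0.031). That call was kept without thapsigargin replicate 1 and ended without any other library (adjusted p 0.069 to 0.095). At 12 h Pfkp was 98.0 and 98.3 CPM against 97.7 and 102 CPM (0.02 ± 0.22). The log2 Pfkp/Pfkm ratio changed by -0.04, 1.61 and 1.13 at the 3 times, with a mean of 0.90 (exact permutation p = 0.0092, 0.019 adjusted). The liver form Pfkl showed log2 differences of -0.15 ± 0.37, -0.83 ± 0.37 and 0.03 ± 0.45, none called. Its ratio to Pfkm changed by 0.44 on average (exact permutation p = 0.081). Per kilobase its share of the step was the largest of the 3 forms, at 48.3 to 76.5% of message in the group means. These shares depend on merged exons of 6.675 kb for Pfkl, 13.4 kb for Pfkp and 3.34 kb for Pfkm. In counts not divided by length, Pfkl exceeded Pfkp in all libraries but DMSO replicate 3 at 2 h (4032 against 5345 reads).

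PFKFB enzymes make and remove the sugar phosphate that activates phosphofructokinase. Pfkfb4 (chr9:108991778-109032228) was the most abundant of the 4 per kilobase. At 6 h it stood at 35.5, 34.3 and 33.0 CPM in DMSO and 16.6, 18.4 and 17.4 CPM in thapsigargin. It fell by 0.97 ± 0.23 on the log2 scale (edgeR adjusted p = 0.0065), a call kept without any 1 library and lost with total-count scaling (adjusted p = 0.13). At 12 h the difference was -0.76 ± 0.29 (adjusted p = 0.10). Pfkfb1, the liver and muscle form, stood at 4.03, 3.39 and 3.52 CPM against 1.92, 2.29 and 1.84 CPM at 6 h, and at 4.54 and 4.70 CPM against 2.701 and 1.94 CPM at 12 h.

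Pfkfb1 fell by 0.86 ± 0.23 at 6 h (edgeR adjusted p = 0.012) and by 0.99 ± 0.28 at 12 h (adjusted p = 0.027). The first call ended without DMSO replicate 1 or thapsigargin replicate 3 (adjusted p 0.054 to 0.055), and the second when any 1 of the 4 libraries was left out (adjusted p 0.062 to 0.29). Pfkfb3, the form with the strongest kinase activity, had differences of 0.02 ± 0.36, 0.91 ± 0.36 and 0.45 ± 0.44, none called by edgeR. DESeq2 called it higher at 6 h (0.95, adjusted p = 0.034), while without the 4 libraries that stand apart the difference was 0.21 ± 0.23 (edgeR adjusted p = 0.46). Relative to Pfkfb3, Pfkfb1 changed by -1.09 on average (exact permutation p = 0.0042, 0.014 adjusted) and Pfkfb4 by -1.02 (p = 0.0092, 0.019 adjusted). At 2 h these ratios changed by -0.09 and -0.01. Pfkfb2, the heart form, lay at 1.37 to 13.2 CPM over all libraries with differences of 1.0 ± 0.46, 0.50 ± 0.46 and -0.07 ± 0.56, none called.

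Tigar (chr6:127085116-127109557) encodes a phosphatase that removes the same activating sugar phosphate. It was called at 12 h alone. Its levels were 11.8 and 12.0 CPM in DMSO and 24.5 and 25.2 CPM in thapsigargin at 12 h, a rise of 1.06 ± 0.19 on the log2 scale (edgeR adjusted p = 0.0010), kept without any 1 of the 4 libraries. At 2 h it was 17.0, 18.9 and 15.9 CPM against 15.9, 18.1 and 15.4 CPM, and at 6 h 19.3, 19.5 and 17.3 CPM against 20.1, 19.03 and 21.2 CPM. The groups overlapped at both earlier times. In the DMSO groups Tigar fell by 0.65 ± 0.17 between 6 h and 12 h (edgeR adjusted p = 0.012). The difference in drug response between 12 h and 6 h was 0.96 ± 0.24 and did not pass (adjusted p = 0.099).

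In the common trunk of the pathway, Tpi1 (chr6:124810586-124814296), which interconverts the triose phosphates, showed the clearest change. It stood at 1453, 1383 and 1390 CPM in DMSO and 578, 781 and 720 CPM in thapsigargin at 6 h. It fell by 1.02 ± 0.23 on the log2 scale (edgeR adjusted p = 0.0036), a call kept without any 1 library. At 12 h it was 858 and 843 CPM against 644 and 714 CPM, with no overlap but no call (-0.33 ± 0.27, adjusted p = 0.56).

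Pkm stood at 3107, 3011 and 3626 CPM in DMSO and 1640, 2056 and 1961 CPM in thapsigargin at 6 h, and fell by 0.78 ± 0.25 (edgeR adjusted p = 0.034). Ldha stood at 2150, 2111 and 1873 CPM against 948, 1193 and 1167 CPM, and fell by 0.89 ± 0.28 (adjusted p = 0.034). Both calls ended without any 1 of the 6 libraries, with adjusted p of 0.053 to 0.11 for Pkm and 0.050 to 0.11 for Ldha. For Pkm every drug library lay below every vehicle library at all 3 times. The heart-type dehydrogenase Ldhb, at 3.57 to 15.7 CPM, was lower in every drug library at all 3 times without a call (-0.34 ± 0.31, -0.85 ± 0.31 and -1.0 ± 0.39). Its ratio to Ldha changed by -0.17 (exact permutation p = 0.37).

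Gapdh, Aldoa, Pgk1 and Pgam1 were not called by edgeR on all libraries in any drug comparison, and 1 library often stood apart from its group. Gapdh ran at 4943, 3738 and 8852 CPM in DMSO and 1708, 4947 and 3745 CPM in thapsigargin at 6 h. Its differences were -0.50 ± 0.42, -0.75 ± 0.42 and -0.14 ± 0.51 at 2, 6 and 12 h (edgeR adjusted p = 0.64, 0.24 and 0.93). Pgk1 ran the other way among the libraries, at 1099, 1234 and 504 CPM in DMSO and 894, 552 and 679 CPM in thapsigargin at 6 h. DMSO replicate 3 was thus highest for Gapdh and lowest for Pgk1, and recovery replicate 1 held 9172 CPM of Gapdh with 164 CPM of Pgk1. The other recovery libraries held 2750 and 4694 CPM of Gapdh with 1173 and 1159 CPM of Pgk1. Pgam1 was 339, 378 and 117 CPM in DMSO and 172, 86.3 and 118 CPM in thapsigargin at 6 h.

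**Figure D3:**
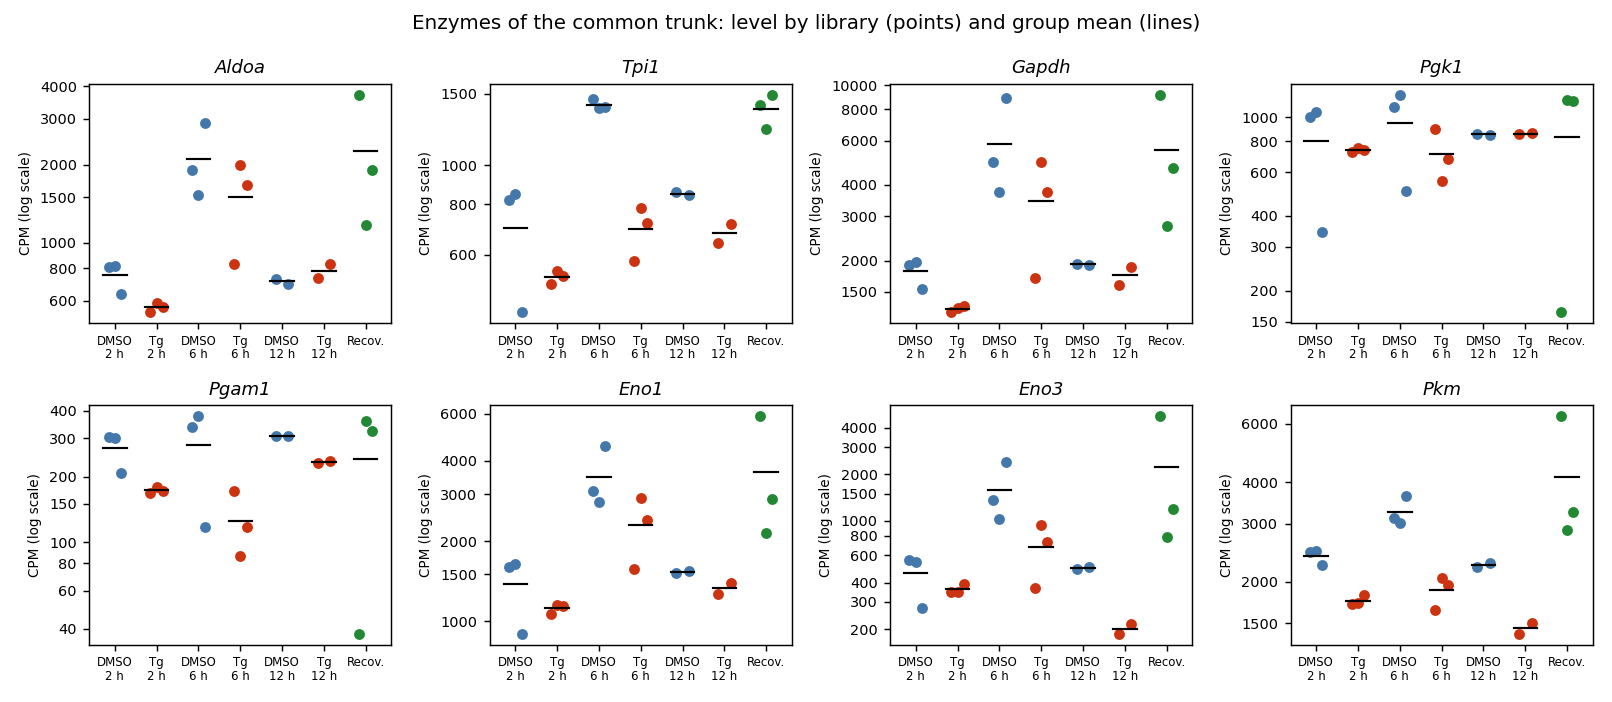
Level of 8 trunk enzymes in CPM (vertical axis, log scale) in each library of the 7 groups (blue DMSO, red thapsigargin, green recovery; lines are group means). Tpi1 and Pkm separate by drug at 6 h, while DMSO replicate 3 at 6 h and recovery replicate 1 are highest for Gapdh, Aldoa and Eno3 and lowest for Pgk1 and Pgam1 in their groups.

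Isozymes of the trunk also shifted against each other. The muscle enolase Eno3 stood at 492 and 501 CPM in DMSO and 187 and 215 CPM in thapsigargin at 12 h, and at 1360, 1031 and 2397 CPM against 369, 943 and 729 CPM at 6 h. These differences (-1.30 ± 0.66 and -1.23 ± 0.54) were not called by edgeR (adjusted p = 0.24 and 0.12). The log2 Eno3/Eno1 ratio changed by -0.01, -0.63 and -1.10 at the 3 times, a mean of -0.58 (exact permutation p = 0.0058, 0.017 adjusted). The neuronal enolase Eno2 gained on Eno1 by 0.59, 0.73 and 0.48 (mean 0.60, exact permutation p = 0.000833, 0.0035 adjusted), with levels of 62.1 and 54.5 CPM against 66.5 and 74.8 CPM at 12 h. Eno1 itself had differences of -0.31 ± 0.35, -0.60 ± 0.35 and -0.21 ± 0.42, none called.

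Pgam2, the muscle mutase, gained on Pgam1 by 0.50, 1.43 and 1.02 (mean 0.99, exact permutation p = 0.000833, 0.0035 adjusted). Pgam2 never passed 2.69 CPM. It remained 0.59 to 2.98% of mutase message per kilobase in DMSO and thapsigargin libraries, and reached 8.67% in recovery replicate 1 alone. The brain-type aldolase Aldoc lost against Aldoa by a mean of 0.56 (exact permutation p = 0.010, 0.019 adjusted), again at a low level of 0.605 to 4.51 CPM. That ratio changed by -0.47, -0.36 and -0.86 at the 3 times, and the groups overlapped at 2 h and 6 h. Neither Pgam2 nor Aldoc was called by itself at any exposure time. Gpi1 was lower in every drug library at all 3 times (865, 719 and 1121 CPM against 391, 702 and 609 CPM at 6 h) with no call (-0.54 ± 0.29, -0.67 ± 0.29 and -0.31 ± 0.35). Bpgm, which makes the phosphoglycerate that lowers oxygen affinity of haemoglobin, lay at 11.8 to 26.7 CPM and was not called (-0.34 ± 0.18, -0.35 ± 0.18 and 0.05 ± 0.22).

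By edgeR on all libraries no glucose transporter of the set was called under the drug, while Slc2a1 at 6 h lay at the threshold. Slc2a1, the basal transporter GLUT1, stood at 237, 229 and 255 CPM in DMSO and 232, 226 and 231 CPM in thapsigargin at 2 h. At 6 h it was 246, 261 and 230 CPM against 179, 177 and 181 CPM, and at 12 h 171 and 166 CPM against 182 and 182 CPM. The groups overlapped at 2 h, the drug libraries were lower at 6 h and higher at 12 h. The log2 differences were -0.07 (95% interval -0.38 to 0.24), -0.45 (-0.77 to -0.14) and 0.11 (-0.27 to 0.49), and edgeR called none (adjusted p = 0.91, 0.051 and 0.83). At 6 h DESeq2 called Slc2a1 lower (-0.41, adjusted p = 2.1e-04), as did 5 of 17 alternatives in all. Slc2a3 and Slc2a4 did not exceed 0.94 CPM in any library. A count of 3 reads corresponds to 0.066 to 0.24 CPM, so both transporters were measured close to the limit of this depth. Slc2a3 was called lower at 6 h without the 4 libraries that stand apart (-2.51 ± 0.90, adjusted p = 0.029), and Slc2a4 was not.

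Of the pyruvate dehydrogenase kinases, Pdk3 was called. It stood at 29.8, 30.1 and 28.6 CPM in DMSO and 20.2, 18.9 and 21.5 CPM in thapsigargin at 6 h, and fell by 0.54 ± 0.17 (edgeR adjusted p = 0.026). The call was kept without thapsigargin replicate 3 and ended without any other library (adjusted p 0.050 to 0.087). At 2 h Pdk3 was 28.3, 29.0 and 33.9 CPM against 21.4, 22.5 and 19.4 CPM, with no overlap. That difference (-0.53 ± 0.17, edgeR adjusted p = 0.088) was called by DESeq2 (adjusted p = 0.0014) and under 6 of 17 alternatives in all. At 12 h Pdk3 was 33.5 and 34.9 CPM against 35.8 and 34.6 CPM. Pdk4, the form induced by fasting, was 25.3, 28.2 and 34.8 CPM in DMSO and 52.8, 52.7 and 52.7 CPM in thapsigargin at 2 h, where the groups did not overlap and the test did not pass (0.84 ± 0.56, adjusted p = 0.51). Pdk4, without the 4 libraries that stand apart, was called higher at 2 h (1.04 ± 0.17, adjusted p = 3.1e-04) and lower at 6 h (-0.54 ± 0.20, adjusted p = 0.034), where the difference over all libraries was 0.32 ± 0.57. Pdk1, the hypoxia-responsive form, had differences of -0.24 ± 0.33, -0.50 ± 0.33 and 0.16 ± 0.41, and Pdk2 of -0.99 ± 0.29, -0.57 ± 0.29 and -0.18 ± 0.36, none called by edgeR. DESeq2 called Pdk2 lower at 2 h (-0.99, adjusted p = 0.024). With those 4 libraries left out, edgeR called Pdk1 lower at 2 h and 6 h and Pdk2 at no time. The ratios of Pdk2, Pdk3 and Pdk4 to Pdk1 changed by a mean of -0.38, -0.17 and 0.42 (exact permutation p = 0.18, 0.29 and 0.12). The mean of Pdk4/Pdk1 joins changes of 1.08 at 2 h, 0.69 at 6 h and -0.52 at 12 h, with no overlap at 2 h and 12 h in opposite directions. Pfkfb2/Pfkfb3 likewise changed by 1.06, -0.34 and -0.52.

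Counted over the set, 1 gene was called higher at 2 h against 3.01% of all genes tested, and 1 lower against 1.51%. At 6 h, 2 were higher against 13% of all genes and 9 lower against 8.79%, which is 26.5% of the members. At 12 h, 1 was higher against 6.29% and 3 lower against 6.77%. The shares at 2 h and 12 h are near the background. The median log2 difference of the members was -0.20, -0.58 and -0.16 at 2, 6 and 12 h, beside -0.04, 0.01 and 0.01 over all genes. With total-count scaling the median over all genes was 0.17 at 2 h and 0.14 at 6 h, and the members called were 0 at 2 h, 5 lower at 6 h and 1 higher with 0 lower at 12 h.

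Without the 4 libraries that stand apart, the calls were many more, for members and for all genes. At 2 h 3 members were higher against 15.1% of all genes and 19 lower against 12.8%. At 6 h the numbers were 3 against 25% and 18 against 25.7%, and at 12 h 3 against 19.2% and 12 against 21.4%. Hk1, Pfkm, Tpi1, Pkm, Ldha, Eno3, Pgam1, Pfkfb4 and Slc16a3 were called lower and Hk2 higher at all 3 times in that fit. Also lower were Pdk1, Aldoc, Pfkl, Aldoa, Pdk3, Gpi1, Bpgm, Gapdh, Pgk1 and Eno1 at 2 h. At 6 h these were Slc2a3, Pdk1, Pdk4, Pfkl, Pfkfb1, Slc2a1, Pdk3, Bpgm and Pgk1, and at 12 h Pfkfb1, Ldhb and Gpi1. Also higher were Pdk4 and Pfkfb2 at 2 h, Pfkp and Slc16a1 at 6 h, and Slc16a1 and Tigar at 12 h. This set of libraries was chosen after the data were seen.

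By overlap of libraries alone, 11 members were lower in every drug library at 2 h, 17 at 6 h and 16 at 12 h, against 19.2, 16.4 and 35.8% of all genes. Higher in every drug library were 3, 3 and 9, against 19.3, 21 and 37.3%. Lower at all 3 times were Hk1, Gpi1, Pkm, Ldhb and Slc16a3, which is 5 of 34 beside 5.81% of all genes. Hk2 was the 1 member higher at all 3 times, beside 7.11% of all genes.

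**Figure D4:**
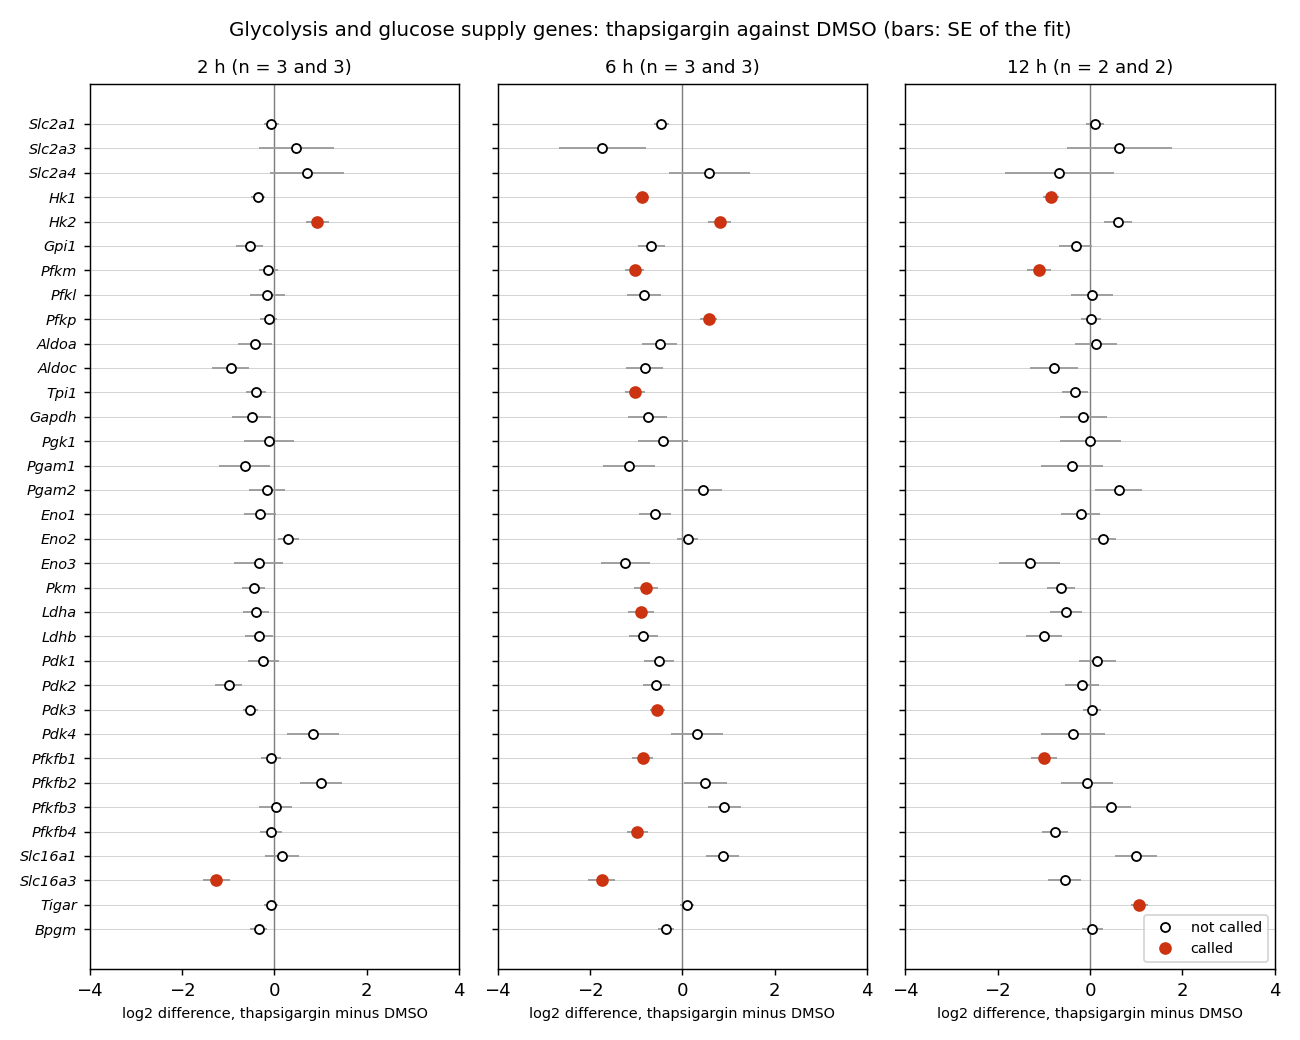
Log2 difference between thapsigargin and DMSO (horizontal axis, bars are the SE of the fit) for the 34 genes in pathway order (vertical axis) at 2, 6 and 12 h. Filled points passed edgeR's adjusted p under 0.05: 2 genes at 2 h, 11 at 6 h and 4 at 12 h.

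The response itself was compared between times. edgeR called 0 members for the difference between 6 h and 2 h (5 at an unadjusted p under 0.05, all genes 2.12% higher and 1.87% lower). The 5 were Hk1, Pfkm, Pfkp, Pfkfb1 and Pfkfb4, with differences of -0.52 ± 0.20, -0.90 ± 0.29, 0.70 ± 0.25, -0.78 ± 0.32 and -0.90 ± 0.33. DESeq2 called 1 higher and 2 lower. Between 12 h and 6 h edgeR again called 0 (4 at an unadjusted p under 0.05; all genes 0.0388% higher and 0.532% lower), and DESeq2 called 2 higher. Without the 4 libraries that stand apart, 2 members were higher and 10 lower between 6 h and 2 h, against 14.4 and 19.2% of all genes, and 9 higher and 2 lower between 12 h and 6 h, against 7.78 and 8.02%. The 4 genes at an unadjusted p under 0.05 in the second comparison were Slc2a1, Pdk3, Slc16a3 and Tigar, with differences of 0.57 ± 0.25, 0.58 ± 0.26, 1.2 ± 0.46 and 0.96 ± 0.24. The 2 comparisons share the libraries at 6 h.

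After 6 h of drug and 48 h without it, 15 members were called higher than in thapsigargin at 6 h. That was 44.1% of the set against 11.6% of all genes, and 1 was lower against 13.9%. The same thapsigargin libraries gave the drug calls at 6 h, so the 2 comparisons are not independent. Slc16a3 held 222, 112 and 131 CPM in recovery and was higher by 1.91 ± 0.30 than in thapsigargin at 6 h (edgeR adjusted p = 1.9e-04). Pfkm held 99.5, 80.3 and 95.8 CPM and was higher by 1.55 ± 0.21 (adjusted p = 5.0e-05), and Hk1 held 420, 438 and 453 CPM and was higher by 1.14 ± 0.14 (adjusted p = 3.0e-05). Hk2 was the gene called lower, at 59.8, 97.9 and 67.8 CPM (-0.93 ± 0.25, adjusted p = 0.013). The Hk2 call ended without thapsigargin replicate 1 (adjusted p = 0.066).

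The others called higher than in thapsigargin at 6 h were Aldoc (1.56), Tpi1 (0.99), Eno2 (0.91), Pkm (1.14), Pdk2 (1.16), Pfkfb1 (1.17) and Pfkfb4 (1.14) on the log2 scale, which with Hk1, Pfkm and Slc16a3 were kept without any 1 library. The calls of Pfkl (1.16), Eno3 (1.72), Ldhb (0.88), Pdk3 (0.58) and Slc2a3 (2.63) were lost without single libraries. Without recovery replicate 1, Pfkl came to 0.51, Eno3 to 0.54 and Ldhb to 0.57. The calls of Pfkl and Eno3 were also lost without thapsigargin replicate 1 or 3 (adjusted p 0.064 to 0.22 and 0.073 to 0.32 over the 3 libraries), and that of Ldhb without any library but recovery replicate 2 (adjusted p 0.051 to 0.17). The call of Pdk3 ended without thapsigargin replicate 2 or recovery replicate 3 (adjusted p 0.063 to 0.090). Slc2a3 lay near 0 in all libraries, at 0, 0.94 and 0.56 CPM in recovery, and its call was kept only without recovery replicate 1 (adjusted p otherwise 0.070 to 0.15). Gapdh differed by 0.68 ± 0.42 (adjusted p = 0.26).

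Against DMSO at 6 h, edgeR called 0 members in recovery in either direction, beside 0.205% of all genes higher and 0.122% lower. At an unadjusted p under 0.05 there were 2, Eno2 (1.03 ± 0.23, adjusted p = 0.073) and Pfkm (0.52 ± 0.20, adjusted p = 0.40), and DESeq2 called 1 higher. The 95% intervals still allowed differences in other genes, such as -0.01 to 0.54 for Hk1, -0.61 to 0.37 for Hk2 and -0.90 to 0.74 for Gapdh (-0.08 ± 0.42). Without the 4 libraries that stand apart, Eno2, Pfkp and Pfkm were called higher, against 3.24% of all genes. Both recovery comparisons share the recovery libraries, and this one shares the DMSO libraries with the drug comparison at 6 h.

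In vehicle, genes of the set were called over time as many other genes were, and the length trend of the libraries differed between the times. From 2 h to 6 h in DMSO, 12 members were called higher against 24.6% of all genes and 6 lower against 25%, in sum near the share of all genes. Higher were Gpi1, Pfkl, Aldoa, Tpi1, Gapdh, Eno1, Eno2, Eno3, Ldha, Ldhb, Slc16a3 and Bpgm, from 0.56 ± 0.18 for Bpgm to 1.80 ± 0.55 for Eno3. Lower were Hk2 (-1.03 ± 0.25), Pfkp (-0.59 ± 0.18), Pgam2 (-1.12 ± 0.41), Pdk2 (-0.74 ± 0.29), Pdk4 (-1.92 ± 0.58) and Pfkfb3 (-1.28 ± 0.36). With offsets for transcript length and GC content Pfkp turned to 0.39 and Ldhb to -0.01, neither called. Calls of Gpi1, Pgam2, Eno3, Ldhb, Pdk2, Pdk4 and Bpgm ended without 1 or more single libraries, with adjusted p of up to 0.39 (Pdk2).

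From 6 h to 12 h in DMSO, 4 members were called higher against 18.7% of all genes and 11 lower against 16.8%. Eno2 (1.11 ± 0.25), Pdk1 (0.97 ± 0.37), Pfkfb2 (1.85 ± 0.51) and Pfkfb3 (1.43 ± 0.40) rose. Slc2a1, Hk1, Gpi1, Pfkl, Aldoa, Tpi1, Gapdh, Eno1, Eno3, Slc16a3 and Tigar fell, from -0.44 ± 0.16 for Hk1 to -1.69 ± 0.63 for Eno3, with Gapdh at -1.60 ± 0.50 and Slc16a3 at -1.47 ± 0.34. Each of these 15 calls ended without at least 1 of the 5 libraries, with adjusted p of up to 0.20. The long-to-short trend differed between the 6 h and 12 h libraries as well, so time and library composition cannot be told apart. Both steps share the DMSO libraries at 6 h.

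Genes outside the set were read from 8 lists of neighbouring pathways. Over all genes tested, 3.01, 13 and 6.29% were called higher at 2, 6 and 12 h and 1.51, 8.79 and 6.77% lower. Each list's counts are to be read against these shares, and nothing particular to a list follows from them. Among 18 other isozymes and transporters tested at 6 h, 3 were higher and 1 lower. Slc2a6, a transporter of lysosomal membranes, rose from 1.74 CPM ± 0.275 to 28.4 CPM ± 9.54 at 6 h (SD, n = 3 each; log2 4.02 ± 0.40, edgeR adjusted p = 3.8e-06). It rose from 2.68 CPM ± 0.122 to 63.0 CPM ± 5.61 at 12 h (n = 2 each; 4.55 ± 0.50, adjusted p = 1.6e-05). Emb, a chaperone of monocarboxylate transporters, fell by 0.81 ± 0.22 at 6 h, and the aldose mutarotase Galm fell by 0.80 ± 0.21 at 2 h. At 2 h this list had 0 higher and 1 lower, and at 12 h 1 and 0.

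Among 21 regulators of glucose use, 5 were higher at 2 h, 6 at 6 h and 2 at 12 h, with 0, 0 and 1 lower. Txnip, which restrains glucose uptake, rose by 2.74 ± 0.36 at 2 h and 3.28 ± 0.37 at 6 h (edgeR adjusted p = 3.2e-04 and 1.3e-05). Atf4 rose by 2.03 ± 0.23 at 2 h and 1.59 ± 0.28 at 12 h, Myc by 2.01 ± 0.50 at 6 h, and the glucose transporter regulator Tbc1d1 fell by 0.80 ± 0.25 at 12 h. Atf4 was also called higher at 6 h, and Arrdc4 was called higher at 2 h, 6 h and 12 h. Among 17 hypoxia-response genes outside glycolysis, 0 were called at 2 h, 3 rose and 4 fell at 6 h, and 2 rose at 12 h. Ndrg1 (2.54 ± 0.38) and the ER oxidase Ero1l (2.32 ± 0.26) rose at 6 h while the prolyl hydroxylases Egln3 (-1.62 ± 0.32) and Egln1 (-0.85 ± 0.23) fell. Ero1l and Ndrg1 rose again at 12 h, by 2.91 ± 0.32 and 2.63 ± 0.47.

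Of 9 pentose phosphate genes, G6pdx, the entry enzyme, fell by 0.97 ± 0.14 at 2 h and 0.77 ± 0.14 at 6 h, and its ER counterpart H6pd fell by 0.65 ± 0.15 at 6 h and 0.86 ± 0.18 at 12 h. No other gene of that list was called under the drug. Of 16 glycogen genes, the synthase Gys1 rose by 0.96 ± 0.21 at 6 h and 1.05 ± 0.26 at 12 h, the phosphorylase Pygb fell by 0.94 ± 0.21 and Pgm1 by 0.77 ± 0.20 at 6 h, and Phkg2 rose by 0.86 ± 0.24 at 12 h. That list had 0 calls at 2 h, 2 in each direction at 6 h and 2 higher at 12 h. Of 9 gluconeogenesis and NADH shuttle genes, the mitochondrial Pck2 rose by 1.43 ± 0.36, 1.67 ± 0.37 and 1.69 ± 0.45 at the 3 times. Got1 rose by 1.54 ± 0.26 at 6 h and 1.56 ± 0.32 at 12 h, Gpd1l fell by 0.85 ± 0.26 at 6 h and Gpd2 by 1.2 ± 0.38 at 12 h. In the hexosamine list of 10, Gfpt1, its rate-limiting enzyme, rose by 1.0 ± 0.22 at 6 h and 1.38 ± 0.27 at 12 h. Of 11 genes of pyruvate entry and the pyruvate dehydrogenase complex, the shared subunit Dld alone was called, with a rise of 0.92 ± 0.30 at 6 h.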

How the data were processed

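Each deposited file gives whole-number read counts of 1 library, not normalized, for every gene. Its 5 lines of reads assigned to no gene (13.7 to 28.7% of its sum) stayed out of all tests. Per the submitters' processing notes, Trim Galore, STAR 2.5.3a, bedtools 2.31.0, DESeq2 and the build mm10 were used. Which program counted reads, with what strand setting and on which annotation release is not given in the sources used here, so reads of a gene and an antisense or overlapping partner may be mixed. Of 55401 identifiers, 55141 matched GENCODE (GRCm38) by base identifier, and 34 of 34 members matched. A second Ensembl gene also named Aldoa was kept apart.

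Counts were scaled by TMM and filtered by filterByExpr, and 1 quasi-likelihood model of the 7 groups was fitted in edgeR 4.0.16 (limma 3.58.1, R 4.3.3; biological coefficient of variation 0.352). Adjusted p-values are Benjamini-Hochberg over all 18039 genes, two-sided, and a gene was called under 0.05. Intervals of 95% are 1.96 SE. Isozyme ratios used 0.5 added to each count. Ratios and tables were made in Python 3.11.15 with scipy 1.17.1, and both tests were tested on simulated data. Alternatives were DESeq2 1.42.0, total-count scaling, other filters, length and GC offsets, fits on the compared groups, a replicate block, and leaving out libraries. Equal replicate numbers were not taken as pairs in the main fit.

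Every member is named. In each comparison all called members are named, with other isozymes of the same step and Gapdh. From the 8 lists, the called genes in the top 2 per direction with at least 5 CPM under drug are named, and the count of calls for the rest. Further calls of Atf4 and of Arrdc4 are named besides. Members, lists and ratios were chosen with earlier results of these data known. No protein sequences and no genome sequence were used here.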

Additional observations from a re-analysis of the deposited data

Results flagged for a closer look

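By overlap of libraries alone, Aldoa and Pdk4 lay on opposite sides of DMSO at 2 h and 12 h. Over all genes tested, 19.3% were higher in every drug library at 2 h and 19.2% lower. At 12 h, with n = 2 each, these shares were 37.3 and 35.8%. Aldoa was lower in thapsigargin than in DMSO in all libraries at 2 h (542 to 587 CPM against 638 to 817 CPM) and higher in both at 12 h (731 and 830 CPM against 725 and 696 CPM), a log2 difference of -0.42 ± 0.37 at 2 h and 0.13 ± 0.46 at 12 h. Pdk4 was higher in all libraries at 2 h (52.7 to 52.8 CPM against 25.3 to 34.8 CPM) and lower at 12 h (17.1 and 16.8 CPM against 20.8 and 22.8 CPM), 0.84 ± 0.56 at 2 h and -0.36 ± 0.69 at 12 h. None of these differences was called by edgeR on all libraries. At 2 h Aldoa was called lower and Pdk4 higher without the 4 libraries that stand apart, and neither was called at 12 h. The difference between 2 h and 12 h was not tested for either gene.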

How the results depend on the processing

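The 9 isozyme ratios below 0.05 stayed there under every alternative run, and at 6 h Hk1, Pfkm, Tpi1 and Slc16a3 kept their calls in every setting. Counts of members called moved more, given here as higher and lower; settings not named for a comparison kept its counts within 1.5 times. Depth limits Slc2a3, Slc2a4, Pgam2 and Aldoc most. Unless a value above shows it, the cause of each move was not tested. With total-count scaling the counts were 0 and 0 at 2 h, 0 and 5 at 6 h, 0 lower at 12 h, 8 and 0 for recovery against thapsigargin, 3 lower for DMSO from 2 h to 6 h and 5 lower from 6 h to 12 h. Without a filter they were 0 higher at 2 h, 6 h and 12 h, 1 lower at 12 h, 2 lower for recovery against thapsigargin, and 3 and 7 lower for the 2 DMSO steps. With a filter of 1 CPM in 3 libraries, 2 were lower at 2 h and 2 for recovery against thapsigargin. Fitting only the compared groups gave 3 and 6 at 2 h, 6 and 14 at 12 h, 4 and 0 for recovery against thapsigargin and 1 higher for the response at 6 h against 2 h. DESeq2 gave 4 lower at 2 h, 4 higher at 6 h, 3 lower for recovery against thapsigargin, 1 higher for recovery against DMSO, 1 and 2 for the response at 6 h against 2 h, and 2 higher at 12 h against 6 h. Length and GC offsets gave 2 lower at 2 h, 2 higher at 12 h, 3 lower for recovery against thapsigargin, 1 higher against DMSO, 7 lower for DMSO from 6 h to 12 h, and 1 lower and 1 higher for the 2 response comparisons. Without the 2 libraries of high mitochondrial share there were 4 lower at 2 h, 4 and 18 at 6 h, 2 and 9 at 12 h, 3 lower for recovery against thapsigargin, 1 higher against DMSO, 2 and 5 for the first response comparison and 3 and 1 for the second. Without the 4 libraries that stand apart there were 3 and 19 at 2 h, 18 lower at 6 h, 3 and 12 at 12 h, 4 lower for recovery against thapsigargin, 3 higher against DMSO, 17 lower for DMSO from 6 h to 12 h, 2 and 10 for the first response comparison and 9 and 2 for the second.

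Replicate numbers were not taken as pairs in the main fit. The deviations of same-numbered DMSO and thapsigargin libraries correlated across genes by -0.0035, 0.0203 and 0.0037 at 2 h. At 6 h these correlations were 0.30, -0.61 and 0.39. They cannot decide whether libraries were paired, since at 6 h DMSO replicate 3 and thapsigargin replicate 1 stood apart from their groups. With a replicate block 1 member was higher at 6 h and 4 lower for DMSO from 6 h to 12 h. With the block and length and GC offsets there were 2 lower at 2 h, 1 higher at 6 h, 2 lower for recovery against thapsigargin, and 1 and 4 for DMSO from 6 h to 12 h. In the DMSO step from 2 h to 6 h Pfkp turned to 0.39 with offsets and 0.38 with offsets and block, and Ldhb to -0.0145 and -0.0195. Gapdh turned to -0.24 for recovery against thapsigargin without the 4 libraries, and against DMSO to 0.0037 with DESeq2 and to 0.36, 0.25 and 0.03 without DMSO replicate 3, recovery replicate 2 and recovery replicate 3 (-0.65 to 0.36 over single libraries left out).

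Leaving out 1 library at a time gave 0 higher and 0 to 2 lower at 2 h, 0 to 2 higher and 5 to 7 lower at 6 h, 0 to 2 lower at 12 h, 11 to 16 higher and 0 to 3 lower for recovery against thapsigargin, 9 to 12 higher and 3 to 6 lower for DMSO from 2 h to 6 h, and 0 to 4 higher and 0 to 9 lower from 6 h to 12 h. It gave ratio changes of 0.40 to 0.50 for Pfkl/Pfkm (past the threshold without thapsigargin replicate 1 at 6 h), -0.46 to 0.28 for Slc2a3/Slc2a1, 0.29 to 0.95 for Slc2a4/Slc2a1 (past it without DMSO replicate 1 at 12 h) and -0.0537 to 0.16 for Pfkfb2/Pfkfb3. Pfkl/Pfkm was 0.54 with offsets (exact permutation p = 0.048) and 0.52 without the 3 libraries that stand apart at 2 h and 6 h (p = 0.042). Without these 3, Ldhb/Ldha turned to 0.11, Pdk2/Pdk1 to 0.0382, Pdk3/Pdk1 to 0.0840 and Pfkfb2/Pfkfb3 to -0.11. Pfkfb2/Pfkfb3 was -0.0537 without the 1 library of high mitochondrial share, and Slc2a3/Slc2a1 was 0.04 with 5 added to each count.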

Other observations

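A second Ensembl gene named Aldoa (chr7:126800790-126809108, protein coding) had its own counts. They were 58, 34 and 28 reads in DMSO and 130, 109 and 84 in thapsigargin at 2 h, 19, 33 and 1 against 268, 35 and 109 at 6 h, 39 and 35 against 204 and 254 at 12 h, and 0, 68 and 33 in recovery. The main Aldoa gene had 14341 to 73052 reads over the same libraries. These read counts are not scaled for library size. In CPM the main gene ran at 542 to 3723, and at 6 h its drug and vehicle libraries overlapped.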
